A study of Homo sapiens with 22 samples.

Results

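Gene deserts are long stretches of chromosome without a protein-coding gene. Those described here were all gaps of 500 kb or more between consecutive protein-coding genes, taken from merged RefSeq gene bodies (GRCh38.p14, chromosomes 1 to 22), that held at least 1 CTCF peak of wild-type cells. Of 650 gaps of that length, 620 met this rule; 30 held no CTCF peak, and 11 of those held a peak of another protein. The 620 deserts ran from 501 kb to 22.4 Mb with a median of 940 kb, and together covered 823 Mb, or 29.5% of the 2790 Mb between the first and the last gene of each chromosome. There were 334 deserts under 1 Mb, 195 of 1 to 2 Mb and 91 of 2 Mb or more.

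The data were 12 peak lists of chromatin immunoprecipitation sequencing (ChIP-seq) in hTERT RPE-1, an immortalised human retinal pigment epithelial cell line, with 1 library per group and 10 further input libraries that were not analysed here. Wild-type cells gave the CTCF and WAPL lists. In clone A2 (mCherry-P2A-FKBP12(F36V)-NIPBL) and clone D7 (mGreenLantern-P2A-FKBP12(F36V)-NIPBL) (A2 and D7 below) the NIPBL protein carries a domain that the small molecule dTAGV-1 marks for degradation. RAD21 was precipitated from both clones after DMSO, the solvent (24 h), or dTAGV-1 (4 h or 24 h). HA was precipitated from clone A2, and STAG1, STAG2 and PDS5A from clone D7, PDS5A after DMSO; peak names in the HA list read HA-NIPBL. Cells were unsynchronised, RAD21 and PDS5A libraries held a spike-in of about 10% NIH/3T3 (mouse) chromatin, and HA chromatin alone was fixed with DSG before formaldehyde. Each line is 1 clone, the clones were kept as separate groups, and no comparison has a replicate, so no p-value is given. All intervals are 95% intervals for counting error: exact conditional for density ratios, Wilson for shares and Newcombe for differences of shares.

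Cohesin is a ring-shaped complex that extrudes loops of DNA; RAD21 is its kleisin subunit, and STAG1 and STAG2 are alternative accessory subunits. NIPBL drives its loading and its extrusion, WAPL and PDS5A act in its release, and CTCF bound to its motif halts it, so that cohesin accumulates at CTCF sites. Gene deserts often flank developmental genes and can hold their distant enhancers.

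Deserts were empty of protein-coding genes by construction, but they were not empty of transcripts in the annotation. They held the midpoints of 7372 non-coding genes and pseudogenes, 4187 of them long non-coding RNA genes, and 603 deserts had at least 1 of the latter. RefSeq promoter windows (GRCh38.p14, 250 bases before to 50 after a start) gave 3293 windows inside deserts, for 2918 genes. A CTCF summit lay in 126 of these. The CTCF core motif of 12 bases, searched on both strands, was found in 15 of those 126 (11.9%, interval 7.35% to 18.7%), in 4 of the 3167 desert windows with no CTCF summit (0.126%), and in 275 of all 33725 promoter windows of 300 bases (0.815%). Outside deserts, 6.67% of windows with a CTCF summit held it.

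Of desert promoter windows with a CTCF summit, the motif core and RAD21 in DMSO of both clones, there were 8. Of these, 7 kept RAD21 in all 4 dTAGV-1 lists and 1 lacked it in at least 1 list. Among all 3131 CTCF-overlapping desert RAD21 peaks of D7 DMSO shared with A2 DMSO, 2282 (72.9%) were in all 4. With 8 windows, no trait of promoters can be read from this. To let the site and its cohesin be read together, 3 windows that kept RAD21 in all 4 lists, each in another desert, are shown. The single window that did not is shown as well. The 3 had the highest D7 DMSO fold among the windows open to this choice. Not every chromosome was open to it, so they need not be the highest of all 7. DIRC3 (chr2:217756544-217756843, minus strand), LINC02458 (chr12:89019643-89019942, minus) and LOC105371274 (chr16:54633819-54634118, plus) are long non-coding RNA genes inside a desert, and STEAP1 (chr7:90154219-90154518, plus) is the protein-coding gene at the edge of one. Sequences run 5′ to 3′ along the gene's strand, and capitals mark the core motif or its reverse complement. A match describes the letters and is not a site shown to be bound.

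DIRC3: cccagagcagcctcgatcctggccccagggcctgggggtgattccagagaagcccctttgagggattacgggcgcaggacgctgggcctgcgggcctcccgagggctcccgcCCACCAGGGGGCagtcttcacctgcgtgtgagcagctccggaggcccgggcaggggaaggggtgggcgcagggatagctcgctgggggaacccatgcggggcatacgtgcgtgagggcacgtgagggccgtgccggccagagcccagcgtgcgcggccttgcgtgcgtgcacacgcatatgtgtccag
LINC02458: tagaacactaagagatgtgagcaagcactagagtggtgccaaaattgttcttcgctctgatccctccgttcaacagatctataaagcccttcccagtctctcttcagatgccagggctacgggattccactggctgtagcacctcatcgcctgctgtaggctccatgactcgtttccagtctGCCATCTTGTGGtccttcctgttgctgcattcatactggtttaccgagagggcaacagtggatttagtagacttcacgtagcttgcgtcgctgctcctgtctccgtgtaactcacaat
STEAP1: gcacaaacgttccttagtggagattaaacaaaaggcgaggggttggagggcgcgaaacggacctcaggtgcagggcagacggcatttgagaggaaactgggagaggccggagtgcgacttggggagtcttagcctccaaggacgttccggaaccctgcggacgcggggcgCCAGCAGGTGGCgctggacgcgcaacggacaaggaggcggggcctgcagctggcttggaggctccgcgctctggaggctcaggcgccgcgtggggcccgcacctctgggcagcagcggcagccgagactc
LOC105371274: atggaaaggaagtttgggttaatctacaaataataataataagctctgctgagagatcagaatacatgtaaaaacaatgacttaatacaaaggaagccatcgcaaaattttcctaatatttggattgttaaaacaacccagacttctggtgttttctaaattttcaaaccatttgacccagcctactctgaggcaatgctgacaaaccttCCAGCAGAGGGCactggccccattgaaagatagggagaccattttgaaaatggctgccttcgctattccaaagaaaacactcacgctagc

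All 4 desert promoters carried a strong CTCF peak, with a fold enrichment over local background (the authors' value) of 99.4 at DIRC3, 66.6 at LINC02458, 111 at STEAP1 and 30.3 at LOC105371274. At DIRC3, in the TNP1 to TNS1 desert, the RAD21 fold was 71.1 in A2 DMSO, 24.0 at 4 h and 24.8 at 24 h, against 56.9, 43.4 and 24.2 in D7. At STEAP1, which encodes a membrane protein and ends the desert that starts at ZNF804B, it was 34.1, 7.90 and 12.5 in A2 and 34.6, 23.4 and 14.5 in D7. The LINC02458 promoter, between KITLG (the ligand of the KIT receptor) and DUSP6 (a phosphatase of MAP kinases), had 59.9, 33.7 and 40.7 in A2 and 44.0, 51.0 and 12.2 in D7. The LOC105371274 promoter lay between IRX3 and IRX5, a pair of Iroquois homeobox genes. Its RAD21 peaks were weak, at 6.55, 5.44 and 7.32 in A2 and 7.29 and 6.93 in D7 DMSO and at 4 h, with no peak at 24 h. Folds rank peaks within 1 list and are set side by side here without a comparison of levels.

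Peaks of CTCF and of cohesin were sparser in deserts than in the rest of the chromosomes, which was made up of gene bodies and shorter gaps. CTCF had 9.06 peaks per Mb in deserts (8.86 to 9.27) against 25.3 outside, a ratio of 0.358 (0.350 to 0.367); since the rule asked for 1 CTCF peak, this value is a description and not a test. RAD21 in A2 DMSO had 6.13 peaks per Mb in deserts and 17.1 outside, a ratio of 0.359 (0.349 to 0.370). In D7 DMSO it had 5.30 and 16.4, a ratio of 0.324 (0.314 to 0.334). On 22 of 22 chromosomes the density was lower in deserts for CTCF and for RAD21 in DMSO of either clone. The desert RAD21 density per chromosome in A2 ran from 0.988 per Mb on chromosome 19, which had 2 deserts, to 8.68 on chromosome 8, with 44.

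The single peak lists of the 2 STAG subunits and of the release factors differed in how far they thinned out. STAG2 had a ratio of 0.473 (0.456 to 0.490), above RAD21 in DMSO of both clones, with 4.40 peaks per Mb in deserts and 9.30 outside. STAG1 had 3.15 and 12, a ratio of 0.262 (0.252 to 0.273). PDS5A had 2.68 and 13.1, a ratio of 0.204 (0.195 to 0.213), and WAPL 0.283 and 1.23, a ratio of 0.231 (0.201 to 0.264). The STAG1, STAG2 and PDS5A intervals did not overlap one another, while those of PDS5A and WAPL did. These intervals hold counting error only and leave out differences between libraries, list length and depth. For RAD21 alone the ratio ran from 0.302 (0.292 to 0.312) in D7 at 4 h to 0.430 (0.416 to 0.446) in A2 at 4 h. A difference between the proteins was not tested. STAG1 peaks that overlapped no STAG2 peak had a ratio of 0.156 (0.145 to 0.169), peaks shared by both 0.345 (0.329 to 0.362), and STAG2 peaks without STAG1 0.815 (0.771 to 0.862). Thus 6.15% of STAG1-only peaks and 25.5% of STAG2-only peaks lay in deserts, against 9.90% of all STAG1 and 16.5% of all STAG2 peaks. The median background pileup was 2.00 in deserts and 4.67 outside at STAG1 peaks, and 3.14 and 4.46 at STAG2 peaks. Its part in these ratios was not tested.

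HA was the exception. Of its 210 peaks between the first and last genes, 72 (34.3%, interval 28.2% to 40.9%) lay in deserts, a density ratio of 1.25 with an interval of 0.924 to 1.67 that includes 1. With peak-free stretches of 1 Mb or more left out the ratio was 1.48 (1.10 to 1.99), and in deserts of 1 Mb or more alone it was 0.771 (0.523 to 1.11). The HA ratio thus lay on either side of 1, while the other 11 lists stayed below 1 under every alternative run. HA chromatin differed from the rest in its fixation, and the part of that in the ratio was not tested.

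Part of the difference was made of unbroken blank sequence. Stretches of 1 Mb or more with no peak of any list took up 151 Mb of the deserts and 55.0 Mb of the rest; whether reads can be placed in them was not tested. Without them the ratio was 0.427 for CTCF, 0.428 and 0.385 for RAD21 in DMSO of clones A2 and D7, 0.563 for STAG2, 0.312 for STAG1 and 0.242 for PDS5A. The 3 longest deserts were of this kind. The desert between LINC02798 and H3-7 on chromosome 1 (121463130 to 143902385) spanned 22.4 Mb, of which 98.5% was 1 peak-free stretch, and held 6 CTCF peaks. Those between LOC112268044 and SPATA31A5 on chromosome 9 (42955509 to 60914371) and between LOC124903767 and SHCBP1 on chromosome 16 (34389822 to 46578590) held 2 and 3 CTCF peaks, with 98.3% and 85.8% in 1 peak-free stretch.

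**Figure D1:**
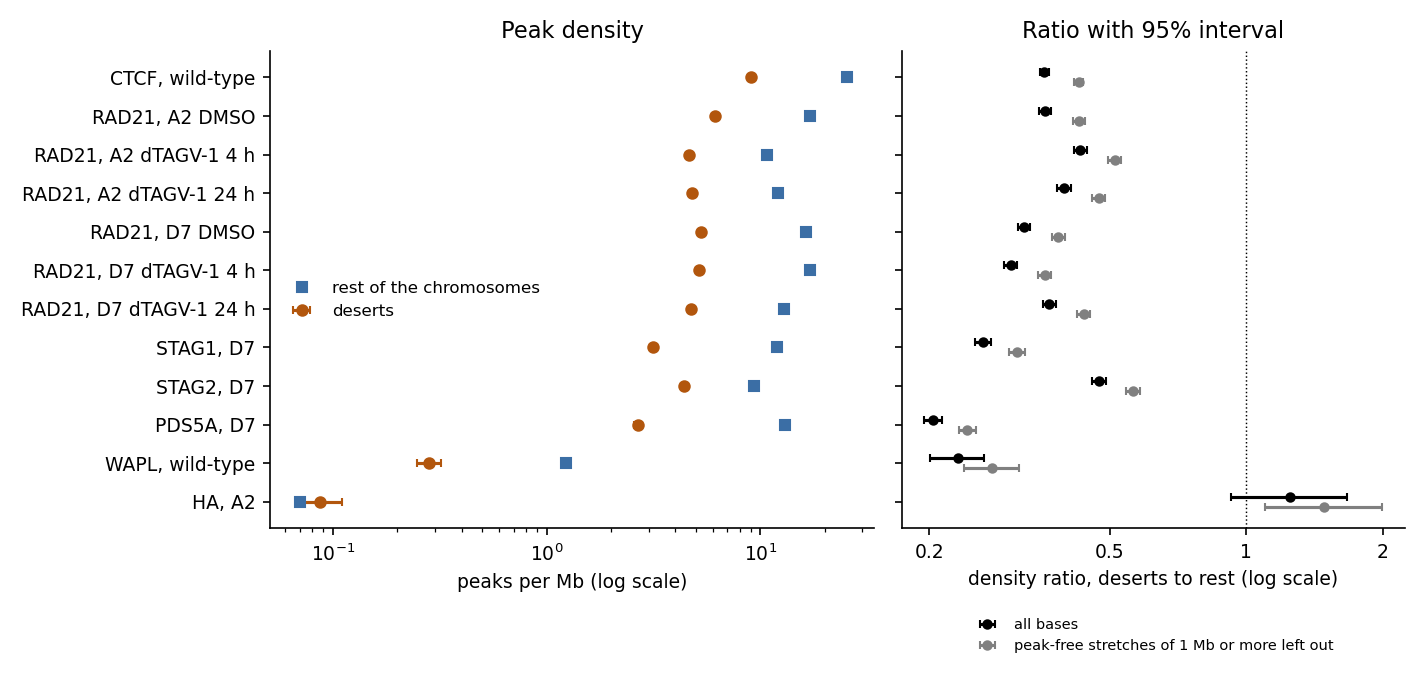
Left, peaks per Mb (log scale) in deserts (circles, with exact Poisson 95% intervals) and in the rest of the chromosomes (squares) for the 12 lists, 1 library each; right, the ratio of the 2 densities (log scale, 95% interval) over all bases and with peak-free stretches of 1 Mb or more left out. Ratios run from 0.204 for PDS5A to 0.473 for STAG2, and HA alone lies above 1.

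Within deserts, density was highest at the edges. Outside peak-free stretches, CTCF had 34.4 peaks per Mb in the 10 kb next to a flanking gene, 17.6 at 10 to 50 kb, 11.7 at 100 to 250 kb and 7.71 beyond 500 kb. The RAD21 densities in A2 DMSO at the same distances were 26.0, 11.7, 8.45 and 4.79. The steepest falls were those of WAPL, from 1.60 to 0.116, and of HA, from 1.01 to 0.0476, which rested on 19 and 22 WAPL peaks and on 12 and 9 HA peaks. PDS5A went from 18.8 to 1.73, STAG1 from 19.1 to 1.97 and STAG2 from 14.4 to 3.29. STAG2 was below STAG1 in the outermost 10 kb and above it at every greater distance.

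**Figure D2:**
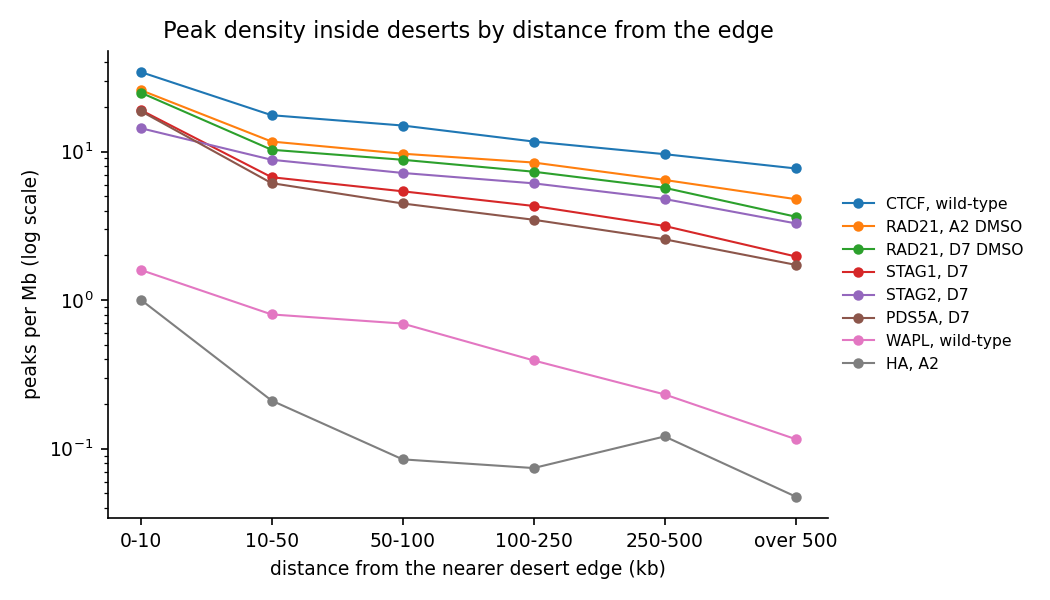
Peaks per Mb (log scale) inside deserts in 6 classes of distance from the nearer edge, which is the end of a flanking protein-coding gene, with peak-free stretches of 1 Mb or more left out of the length; each line is 1 list. CTCF falls from 34.4 to 7.71 per Mb, and the STAG1 and STAG2 lines cross after the first class.

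Longer deserts were thinner. CTCF had 13.9 peaks per Mb in deserts under 1 Mb, 10.4 in those of 1 to 2 Mb and 8.64 in those of 2 Mb or more, peak-free stretches left out. At the threshold itself, CTCF density was 15.3 per Mb in 66 gaps of 450 to 500 kb and 14.3 in 58 gaps of 500 to 550 kb. Single deserts varied widely: the CTCF density had quartiles of 6.13 and 15.8 per Mb and a highest value of 42.6, and 136 deserts held 5 or fewer CTCF peaks. Neighbouring CTCF peaks lay a median of 43.7 kb apart in deserts and 20.6 kb outside. No RAD21 peak was found in 36 deserts in A2 DMSO and in 45 in D7 DMSO.

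The 3 deserts with the most CTCF peaks were all longer than 3 Mb. The desert between C4orf33 and PCDH10 (a protocadherin) on chromosome 4 (129116638 to 133149293) and the one between SPRY2 (an inhibitor of receptor tyrosine kinase signalling) and SLITRK1 (a synaptic adhesion protein) on chromosome 13 (80341127 to 83877204) held 46 each. The third, between OTOL1 (an inner ear matrix protein) and SI (sucrase-isomaltase) on chromosome 3 (161503943 to 164978897), held 45. Their RAD21 peaks in DMSO, 4 h and 24 h numbered 25, 28 and 19 in A2 and 17, 18 and 25 in D7 beside PCDH10. Beside SLITRK1 they numbered 27, 20 and 16 in A2 and 12, 14 and 20 in D7. In the OTOL1 to SI desert they numbered 21, 19 and 18, and 17, 17 and 20. In all 3 deserts, D7 had more peaks at 24 h than in DMSO and A2 fewer.

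At CTCF sites the cohesin regulators were filled unevenly in deserts. Over all CTCF peaks 36.8% were overlapped by PDS5A; in deserts 1522 of 7462 were, or 20.4%, against 39.2% outside (difference -18.8 points, -19.8 to -17.8). STAG1, on 40.3% of all CTCF peaks, overlapped 2281 desert CTCF peaks, 30.6% against 41.7% outside (-11.2 points, -12.3 to -10). STAG2, on 32.4% of all, went the other way: 2618 desert peaks, 35.1% against 32.0% (3.12 points, 1.97 to 4.28). Desert CTCF peaks were weaker, with a median fold of 11.5 against 16.5. When the rest was weighted to the same CTCF fold deciles, the desert differences were -11.9 points for PDS5A, -3.63 for STAG1 and 10.2 for STAG2. For RAD21 in DMSO they were 4.36 points in A2 and -1.2 in D7.

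STAG2 peaks away from CTCF made up a larger share of STAG2 peaks in deserts than outside. Not all STAG2 peaks had RAD21: 74.3% of those in deserts overlapped a RAD21 peak of D7 DMSO, against 85.8% outside. For STAG1 these shares were 94.3% and 93.6%. CTCF overlapped 85.1% of all STAG2 peaks; in deserts it overlapped 2632 of 3619 (72.7%) and outside 87.6%, a difference of -14.9 points (-16.4 to -13.4). For STAG1, with 87.6% over all peaks, the desert count was 2263 of 2594 (87.2%), and the difference of -0.375 points had an interval that includes 0 (-1.78 to 0.926). For RAD21 in DMSO, CTCF overlapped 85.7% of all A2 peaks and 82.8% of all D7 peaks. In deserts the counts were 4155 of 5049 (82.3%) and 3422 of 4366 (78.4%), differences of -3.89 points (-5.03 to -2.80) and -5.06 points (-6.37 to -3.79) from outside. The median background pileup recovered at STAG2 peaks was 3.14 in deserts and 4.46 outside, and its part in this difference was not tested. Of the CTCF-free desert peaks, 57 of 987 for STAG2 (5.78%, against 8.95% outside) and 78 of 894 for RAD21 in A2 DMSO (8.72%, against 650 of 4636 outside) lay at an annotated non-coding gene end.

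Many desert RAD21 peaks were present in every condition. Of all D7 DMSO peaks, 50.2% were shared by the 6 RAD21 lists; in deserts 2321 of 4366 were, or 53.2%. The highest by fold lay on chromosome 1 (222464894 to 222466030) between DUSP10, a MAP kinase phosphatase, and HHIPL2, over a threonine tRNA gene, TRT-TGT2-1. Its fold was 67.2, 82.6 and 143 in A2 and 186, 213 and 175 in D7 after DMSO, 4 h and 24 h, and it carried CTCF (137), PDS5A (308), STAG1 (91.6), STAG2 (18.2) and WAPL (13.3). The second lay on chromosome 2 (176637598 to 176638865) between MTX2 and HNRNPA3, over the long non-coding RNA genes LINC01116 and LINC01117. It had folds of 131, 114 and 119 in A2 and 134, 134 and 147 in D7, with CTCF at 76.2 and PDS5A at 162.

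A smaller group was present in DMSO of both clones but absent from every dTAGV-1 list. It made up 5.40% of all D7 DMSO peaks and 203 of 4366 (4.65%) in deserts. The highest by fold were modest peaks. That on chromosome 7 (46360753 to 46361362), between IGFBP3 (an insulin-like growth factor binding protein) and TNS3 (tensin 3), had a fold of 10.6 in A2 and 11.7 in D7, with STAG1 at 9.35, PDS5A at 11.8 and no CTCF peak. That on chromosome 14 (59133171 to 59133681), between DACT1 (a regulator of Wnt signalling) and DAAM1 (a formin), had 11.8 and 11.6 and a CTCF peak of 16.3. The strongest CTCF-free desert peak of D7 DMSO, on chromosome 2 (41414278 to 41415010) between SLC8A1 (a sodium-calcium exchanger) and PKDCC (a secreted kinase), behaved otherwise. It was present in all 6 lists, at 8.41, 6.96 and 7.84 in A2 and 22, 12.8 and 14.2 in D7.

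The number of desert RAD21 peaks was lower than in DMSO in 3 of 4 dTAGV-1 libraries, and in the D7 4 h library the interval included 1. Which D7 library was the exception depended on the setting: among peaks with a −log10 q of at least 10 the ratio was 0.933 at 4 h (0.889 to 0.979) and 0.979 at 24 h (0.934 to 1.03). A2 had 5049 desert peaks in DMSO, 3806 at 4 h and 3949 at 24 h, ratios of 0.754 (0.723 to 0.786) and 0.782 (0.750 to 0.816). Outside deserts the ratios were 0.629 and 0.709. D7 had 4366, 4262 and 3910, ratios of 0.976 (0.936 to 1.02) and 0.896 (0.858 to 0.935), against 1.05 and 0.787 outside. Peaks without CTCF carried most of the loss in A2 at 4 h: they went from 894 to 205 in deserts, a ratio of 0.229, while peaks at CTCF went from 4155 to 3601, a ratio of 0.867. In A2 at 24 h peaks at CTCF made up most of the loss in number, going from 4155 to 3307, a ratio of 0.796. CTCF-free ones went from 894 to 642, a ratio of 0.718, and so still fell by the larger share. In D7 at 24 h CTCF-free desert peaks went from 944 to 390, a ratio of 0.413, and CTCF-overlapping ones from 3422 to 3520, a ratio of 1.03. Outside deserts the CTCF-free ratios were 0.0716 in A2 at 4 h, 0.426 in A2 at 24 h and 0.444 in D7 at 24 h. The ratios of CTCF-overlapping peaks outside were 0.719, 0.754 and 0.856 in the same order.

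Retention was the share of DMSO peaks overlapped by at least 1 bp after dTAGV-1. In A2 at 4 h, 61.9% of all DMSO peaks were retained; in deserts 3523 of 5049 were, or 69.8%, against 60.8% outside, a difference of 9.00 points (7.62 to 10.4). The median background pileup at A2 4 h peaks was 3.29 in deserts and 5.17 outside, and its part in this difference was not tested. At 24 h, with 63.9% retained over all, deserts kept 3271 of 5049, 64.8% against 63.7% outside; that difference of 1.04 points had an interval that includes 0 (-0.381 to 2.45). In D7 at 4 h, with 79.9% over all, deserts kept 3340 of 4366, 76.5% against 80.4% (-3.90 points, -5.25 to -2.59). At 24 h, with 68.7% over all, they kept 3113, 71.3% against 68.3% (2.96 points, 1.51 to 4.38). The sign at 4 h was opposite in the 2 clones; the difference between clones was not tested.

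Only the A2 4 h difference kept its sign and an interval clear of 0 in every alternative run, at 4.08 to 14.6 points. It was 4.08 when peaks within 1 kb of protein-coding gene ends were left out, an alternative added after the data were seen, and the D7 24 h difference was then 0.444 (-1.04 to 1.89). The A2 24 h difference was then -2.07 (-3.52 to -0.638). The D7 4 h difference was -0.00450 (-1.43 to 1.36) among peaks with a −log10 q of at least 10. Weighting the rest to the desert's mix of CTCF overlap and fold deciles gave differences of 10.4 and 2.00 points in A2 and -2.66 and 5.19 in D7 at 4 h and 24 h.

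**Figure D3:**
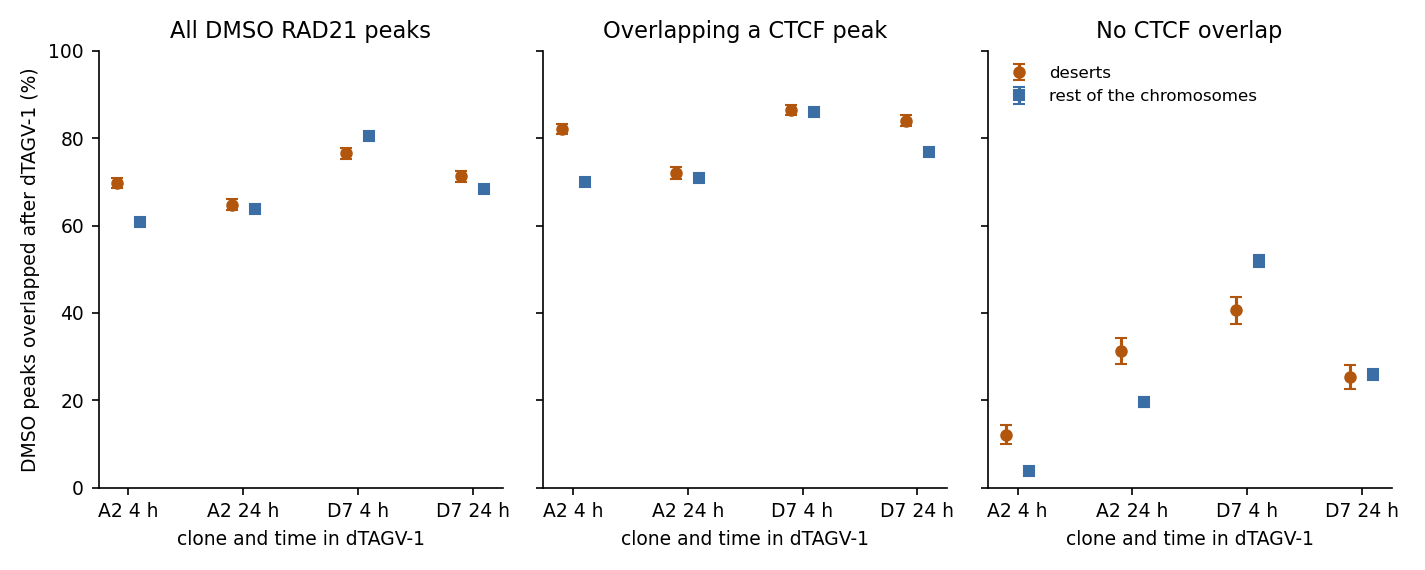
Share of DMSO RAD21 peaks overlapped after dTAGV-1 (%, with Wilson 95% intervals) in deserts (circles) and in the rest of the chromosomes (squares), by cell line and time, for all peaks and split by CTCF overlap. In A2 at 4 h deserts lie above the rest in all 3 panels, and in D7 at 4 h the CTCF-free peaks of deserts lie below.

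CTCF overlap divided the desert peaks more than position did. Retention of CTCF-overlapping desert peaks was 82.2% and 72.0% in A2 and 86.4% and 84.0% in D7 at 4 h and 24 h. For CTCF-free desert peaks it was 12.1%, 31.2%, 40.6% and 25.3%. CTCF-free peaks were retained more in deserts than outside in A2, by 8.22 points (6.16 to 10.6) at 4 h and 11.6 points (8.45 to 14.9) at 24 h. In D7 they were retained less in deserts at 4 h, by -11.4 points (-14.8 to -7.98), while the 24 h interval of -3.52 to 2.50 included 0. At CTCF-overlapping peaks the D7 differences were 0.368 points (-0.890 to 1.55) at 4 h and 7.23 points (5.87 to 8.52) at 24 h.

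Split by DMSO fold, the A2 time points went apart. At 4 h, CTCF-overlapping desert peaks were retained more than those outside in the first 9 deciles; in the fifth decile, at a fold of 9.79 to 13.2, 86.6% of 523 desert peaks were retained against 63.2% of 3258 outside. At 24 h the deserts were higher in the 5 lower deciles and lower in the 5 upper ones. Above the median fold of 13.2, 2057 of 2452 desert peaks were retained, 83.9% against 89.3% outside (-5.40 points, -6.98 to -3.92); below it the difference was 9.92 points (7.38 to 12.4). Of the 395 strong desert peaks absent at 24 h, spread over 231 deserts, 388 (98.2%) had been present at 4 h and 367 (92.9%) overlapped a peak of D7 at 24 h. Outside deserts 1805 such peaks were absent at 24 h, of which 81.8% had been present at 4 h and 79.8% overlapped D7 at 24 h. Over all strong CTCF-overlapping peaks, 98.8% of the 2452 in deserts and 95.1% of those outside were present at 4 h. The 98.2% is thus near the share over all strong desert peaks. The share of all strong desert peaks that overlap D7 at 24 h was not computed, so the 92.9% cannot be read as particular to the absent peaks. The median background pileup at A2 24 h peaks was 2.83 in deserts and 5.51 outside, and its part in the 24 h loss was not tested. In D7, desert CTCF peaks above the median fold were retained at 99.0% and 96.6%.

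**Figure D4:**
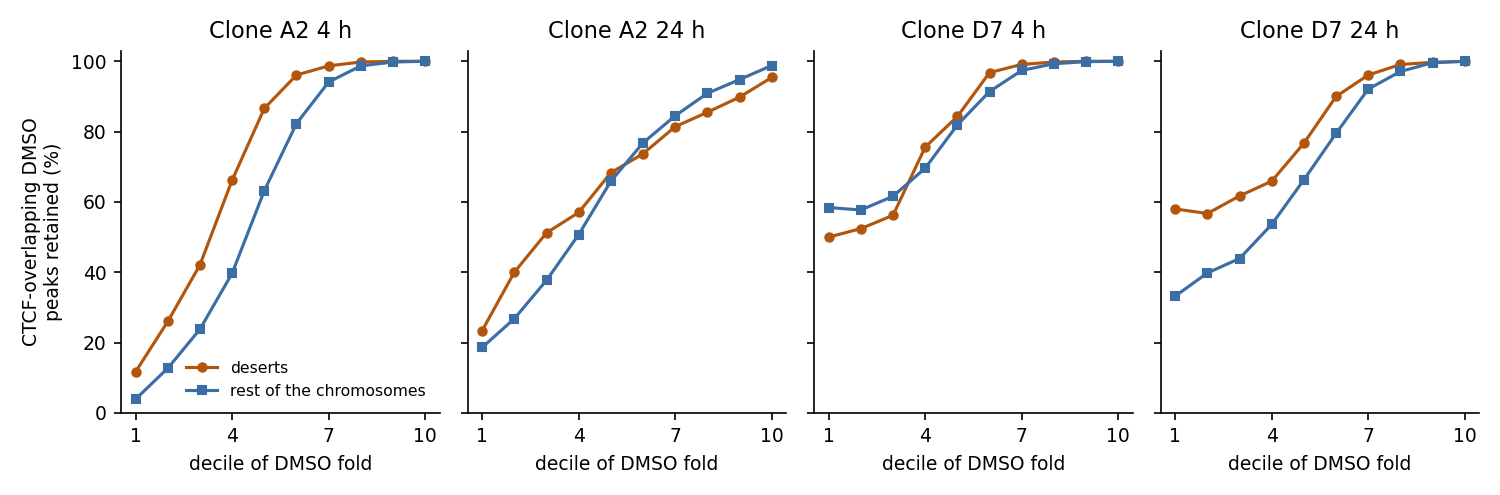
Retention (%) of CTCF-overlapping DMSO RAD21 peaks by decile of DMSO fold, from weakest (1) to strongest (10), in deserts (circles) and in the rest of the chromosomes (squares), 1 panel per cell line and time. The desert line lies above at A2 4 h and D7 24 h, and crosses below the other line at the sixth decile in A2 at 24 h.

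Peaks seen after dTAGV-1 that overlapped no DMSO peak were also counted. In A2 they were 3.55% of all 4 h peaks and 10.8% of all 24 h peaks. In deserts they were 272 of 3806 (7.15%, 4.24 points above the rest, 3.43 to 5.13) and 677 of 3949 (17.1%, 7.40 points above, 6.19 to 8.66). In D7, with 22.7% and 13.4% over all, they were 924 of 4262 (21.7%, -1.14 points, -2.44 to 0.195) and 792 of 3910 (20.3%, 7.90 points, 6.60 to 9.25). These additional desert peaks were weak, with a median fold of 5.04 in A2 at 4 h against 13 for all desert peaks. At 24 h, CTCF overlapped 48.4% of them in A2 and 81.4% in D7.

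The 2 DMSO lists were also compared with each other, which sets a scale for these values. Of A2 DMSO desert peaks, 72.0% overlapped a D7 DMSO peak, against 81.9% outside. Of D7 DMSO desert peaks, 83.0% overlapped A2, against 84.6%. For CTCF-free peaks the desert shares were 55.0% for A2, against 60.1% outside, and 52.2% for D7, against 49.7% outside.

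Retention differed from desert to desert. Among the 59 deserts with at least 15 DMSO peaks in both clones, it ran from 23.8% to 100% in A2 at 4 h with a median of 64.7%, and from 36.8% to 100% in D7 at 24 h with a median of 70.0%. In 44 of the 59 the A2 value at 4 h was below that of D7, and in 33 at 24 h. Over all DMSO peaks, in deserts and outside, retention was also lower in A2, at 61.9% against 79.9% in D7 at 4 h and 63.9% against 68.7% at 24 h. Only 3 had a mean over the 4 comparisons under 50%. These extremes were picked by their retention, so the values below describe them and carry no test.

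The lowest was the desert on chromosome 6 (139374649 to 141686097) that starts beside CITED2, a transcriptional coregulator, and ends at LOC124901415, with a mean of 41.3%. It held 35, 15 and 19 RAD21 peaks in A2 and 34, 14 and 17 in D7 after DMSO, 4 h and 24 h. Only 14 of the 35 and 14 of the 34 DMSO peaks overlapped CTCF. CTCF-free peaks went from 21 to 5 and 8 in A2 and from 20 to 5 and 5 in D7. The desert also had 26 STAG2 peaks against 9 of STAG1, and 7 HA peaks, the most of any desert. Some of these HA peaks lay together beside CITED2, with summits 0.6, 1.5 and 2.2 kb from that edge of the desert. The desert between JUN, a subunit of the AP-1 transcription factor, and FGGY on chromosome 1 (58784048 to 59296377) had a mean of 46.7%, with 21, 5 and 17 RAD21 peaks in A2 and 27, 16 and 11 in D7. The one between TGFB2, a ligand of the TGF-beta family, and LYPLAL1 on chromosome 1 (218444620 to 219173877) had 48.9%, with 18, 10 and 14 and 15, 8 and 11. In these 2 deserts CTCF overlapped 33.3% and 44.4% of the A2 DMSO peaks.

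One of the 3 deserts with the highest mean retention was laid out differently. It lay between STIM2, a calcium sensor of the endoplasmic reticulum, and LOC124900844 on chromosome 4 (27025382 to 30716630), and its mean was 86.4%. Its RAD21 peaks numbered 17, 17 and 16 in A2 and 15, 18 and 15 in D7 after DMSO, 4 h and 24 h. CTCF overlapped all 17 of the A2 DMSO peaks and all 15 of the D7 DMSO peaks, and 16 of the 18 in D7 at 4 h. The desert held 37 CTCF peaks, 8 of STAG1, 10 of STAG2 and no HA peak.

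**Figure D5:**
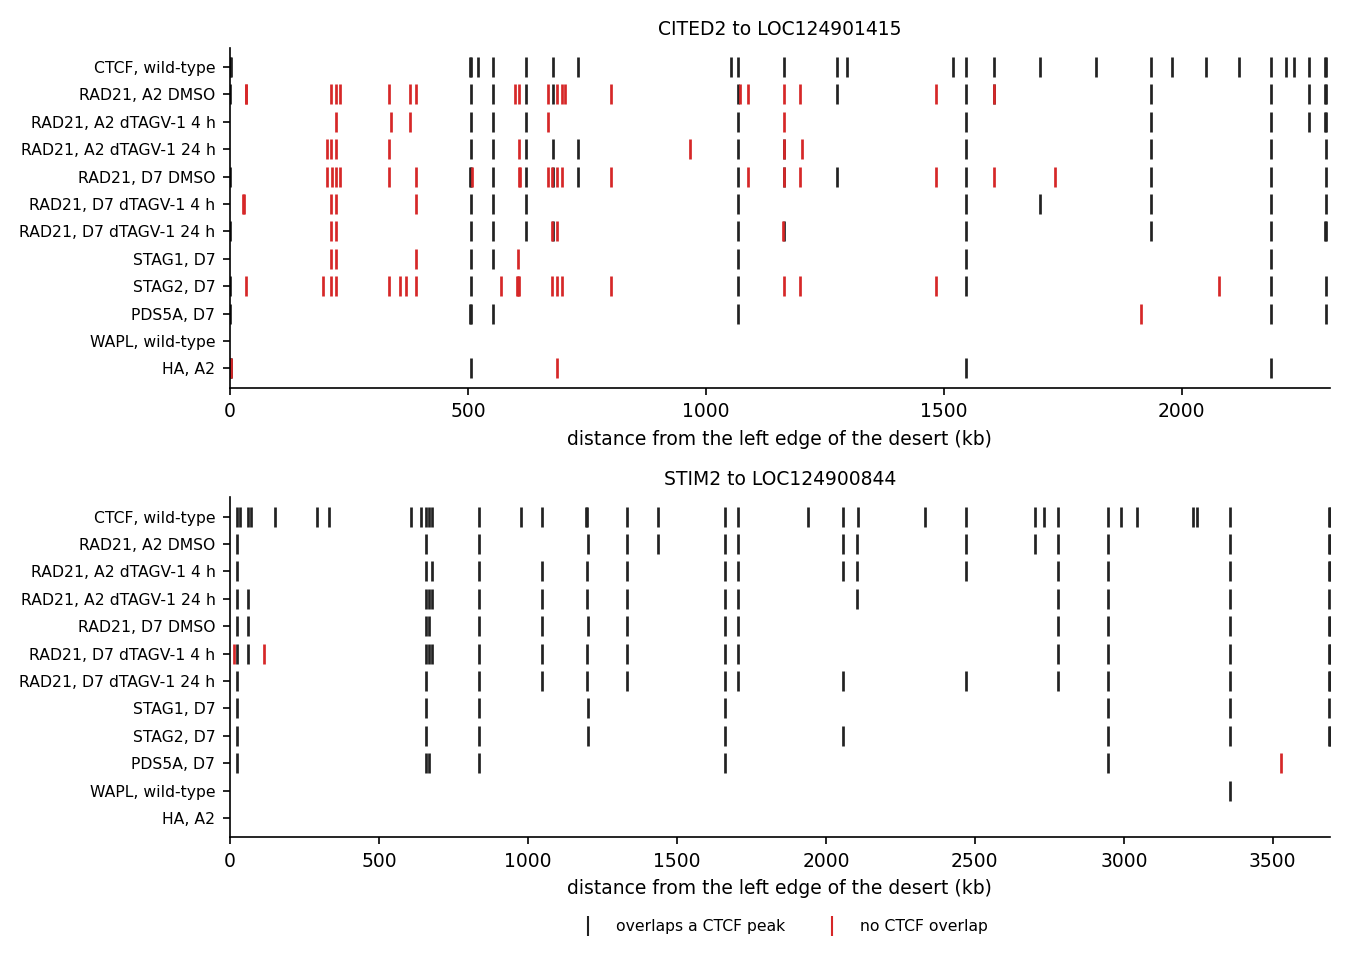
Peak summits of the 12 lists along the desert of lowest mean retention (CITED2 to LOC124901415, top) and along one of the 3 highest (STIM2 to LOC124900844, bottom), by distance from the left edge in kb; black ticks overlap a CTCF peak and red ticks do not. The top desert has 21 CTCF-free RAD21 peaks in A2 DMSO, the bottom one none.

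HA peaks were gathered in few deserts. The 72 peaks lay in 45 deserts, 14 with 2 or more, and 25 of the 72 in the 6 deserts with 3 or more. Besides the CITED2 desert, 4 peaks each lay between TBL1XR1 (a corepressor subunit) and KCNMB2 (a potassium channel subunit), between SOX9 (a transcription factor of cartilage and testis development) and SLC39A11, and between CRYBA4 and MN1. The strongest desert HA peak, on chromosome 3 (177358560 to 177358981) in the TBL1XR1 to KCNMB2 desert, had a fold of 10.9 and itself overlapped no CTCF peak. Its RAD21 fold was 30.8 in A2 DMSO, with no peak at 4 h and 3.05 at 24 h; in D7 it was 29.4, then 4.06 and no peak. Over all HA peaks 95.7% overlapped RAD21 of A2 DMSO, and 72 of 72 did in deserts (interval 94.9% to 100%). CTCF overlapped 64.8% of all HA peaks and 45 of the 72 in deserts (62.5%).

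RAD21 peaks at HA were retained in deserts as follows. Of 68 A2 DMSO desert peaks that overlapped HA, 46 overlapped a 4 h peak (67.6%, 55.8% to 77.6%) and 58 a 24 h peak (85.3%, 75% to 91.8%). The other 4981 desert peaks were retained at 69.8% and 64.5%. Of 66 such peaks in D7, 60 (90.9%) were retained at either time, against 76.3% and 71.0% of the others. Peaks at HA outside deserts were retained at 69.8% and 87.6% of 129 in A2 and 96.1% and 87.5% of 128 in D7. Those at HA were stronger, with a median fold of 19.1 against 12.5 in A2 and 15.5 against 8.78 in D7. The 22 that lacked CTCF in A2 were retained at 27.3% (13.2% to 48.2%) and 63.6% (43.0% to 80.3%), and the 21 in D7 at 71.4% (50.0% to 86.2%) and 76.2% (54.9% to 89.4%).

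The genes beside the deserts were grouped by 4 lists chosen for gene classes known to neighbour deserts, so their counts are no independent evidence. Of all 18973 protein-coding genes, 5.87% flanked a desert. Of the listed genes, 86 of 191 developmental transcription factors (45.0%) did, 72 of 94 genes of cell adhesion and synaptic organisation (76.6%), 32 of 70 ion channel and neurotransmitter receptor genes (45.7%), and 31 of 90 genes of the extracellular matrix and morphogens (34.4%). Deserts beside adhesion genes were the longest, with a median of 1730 kb, and had 9.20 CTCF peaks per Mb. Those beside matrix and morphogen genes had a median of 798 kb and 14.1 CTCF peaks per Mb, against 11.1 over all deserts, peak-free stretches left out. Retention at 4 h in A2 was 77.3% (74.4% to 80.0%) beside adhesion genes, 70.0% beside the transcription factors and 67.8% (66.1% to 69.5%) in the 360 deserts with no listed gene. At 24 h the order in A2 was the opposite, 61.3% (58.0% to 64.5%) beside adhesion genes and 66.8% (65.0% to 68.5%) with no listed gene. In D7 these shares were 79.7% and 76.2% at 4 h, and 75.6% (72.2% to 78.8%) and 71.3% (69.5% to 73.0%) at 24 h. Retention also went with length. From deserts under 1 Mb to those of 2 Mb or more it went from 67.7% to 73.8% in A2 at 4 h and from 66.2% to 61.2% at 24 h. In D7 it went from 77.7% to 76.2% at 4 h and from 70.9% to 75.4% at 24 h. The part of length in the values beside adhesion genes was not tested.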

How the data were processed

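ChIP-seq peak lists of 12 libraries of hTERT RPE-1 cells were read as deposited, 1 list per library. The submitters' processing notes name hg38, mm10, BWA, Picard, SAMtools, bedtools, deepTools and MACS2, with no roles or versions. The files have no header lines, and use of the spike-in is not given in the sources used here. Peak names carry a stricter q limit for CTCF than for the other lists. The score, the fold enrichment (a ratio), the −log10 p-value and −log10 q-value of each peak, and its summit offset, are values the authors deposited. They were used only within a list. Read depth is not given; summit and background pileups were recovered from fold and −log10 p under a Poisson model, and 100% of pileups came out whole (tolerance 0.05) in 11 lists, 8.70% for HA. The lowest background was 1.87 to 4.05 in the 6 RAD21 lists.

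A peak belonged to a desert by its summit. RefSeq genes off the primary chromosomes (153) were left out, leaving 18973 protein-coding genes. Peaks of 2 lists were matched where they shared 1 bp or more, and no p-values were computed. Alternatives were a higher q limit, longer gaps, gaps between genes of any type, all gaps, masking of peak-free stretches, summit distance, equal list length, and summit pileups thinned at random until the lowest background pileup at called peaks was 1.87 in each RAD21 list, which need not equal the same read depth. Scripts used Python 3.11.15, pandas 2.3.3, NumPy 2.4.6 and SciPy 1.17.1 and were tested on simulated peaks. Deserts were named by a rule: the 3 longest, the 3 with most CTCF peaks, and the 3 lowest and 3 highest in mean retention with at least 15 DMSO RAD21 peaks in both clones. Of these, 2 deserts of high retention are not reported here. Named peaks were the 2 of highest D7 DMSO fold in all 6 RAD21 lists, the 2 in both DMSO lists and no dTAGV-1 list, and the top CTCF-free and HA peaks. The members and lists were chosen with earlier results of these data known. The 4 shown promoters, the deserts with most HA peaks and the split at the median fold were chosen after values were seen.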

Additional observations from a re-analysis of the deposited data

Results flagged for a closer look

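In 4 measures the values of the clones had opposite signs at 4 h of dTAGV-1, each with 1 library per clone and time, and the difference between clones was not tested. The retention difference of deserts minus rest was 9.00 points in A2 and -3.90 in D7, and 10.4 and -2.66 points when weighted by CTCF overlap and fold. The share of dTAGV-1 peaks absent from DMSO was 4.24 points higher in deserts than outside in A2 and differed by -1.14 points in D7, where the interval included 0. The share of desert RAD21 peaks that overlap CTCF differed from DMSO by 12.3 points in A2 and by -0.0349 points in D7. Outside deserts that share was 86.2% in DMSO and 98.4% at 4 h in A2, and 83.4% and 78.0% in D7.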

How the results depend on the processing

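Density ratios of deserts to the rest were below 1 in 68 of 72 alternatives run, the 4 exceptions being HA. Ratios that moved beyond their counting interval follow. In gaps of 1 Mb or more they were CTCF 0.301, RAD21 A2 DMSO 0.290, A2 4 h 0.354, A2 24 h 0.310, RAD21 D7 DMSO 0.256, D7 4 h 0.235, D7 24 h 0.298, STAG1 0.205, STAG2 0.364, PDS5A 0.170, WAPL 0.165, HA 0.771. In 75 gaps of 500 kb or more between genes of any type, which hold 83.1 Mb, they were CTCF 0.188, RAD21 A2 DMSO 0.163, A2 4 h 0.218, A2 24 h 0.158, RAD21 D7 DMSO 0.127, D7 4 h 0.123, D7 24 h 0.172, STAG1 0.0988, STAG2 0.201, PDS5A 0.0993, WAPL 0.0993, HA 0. With all 650 gaps they were CTCF 0.338, RAD21 A2 DMSO 0.338, A2 4 h 0.405, A2 24 h 0.374, RAD21 D7 DMSO 0.305, D7 4 h 0.285, D7 24 h 0.347, STAG1 0.247, STAG2 0.445, PDS5A 0.194. Without peak-free stretches they were CTCF 0.427, RAD21 A2 DMSO 0.428, A2 4 h 0.512, A2 24 h 0.472, RAD21 D7 DMSO 0.385, D7 4 h 0.359, D7 24 h 0.438, STAG1 0.312, STAG2 0.563, PDS5A 0.242, WAPL 0.275. Without peaks at protein-coding gene ends (chosen after seeing the data) they were CTCF 0.407, RAD21 A2 DMSO 0.420, A2 4 h 0.464, A2 24 h 0.440, RAD21 D7 DMSO 0.384, D7 4 h 0.362, D7 24 h 0.419, STAG1 0.320, STAG2 0.503, PDS5A 0.259. At a −log10 q of at least 10 they were A2 4 h 0.414, A2 24 h 0.375, D7 4 h 0.319, STAG2 0.414, PDS5A 0.179. Other density alternatives stayed within the interval.

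The RAD21 peak number ratio to DMSO in deserts was 0.847 (A2 4 h), 0.933 (D7 4 h) and 0.979 (D7 24 h) with a −log10 q limit of 10, 0.905 (0.866 to 0.946, D7 4 h) with thinned pileups, and 0.864 (A2 4 h), 0.696 (A2 24 h) and 1.09 (D7 24 h, reversed) between genes of any type. The retention difference, deserts minus rest, moved to 14.6 points in A2 at 4 h, -3.16 at 24 h, and to 0.203 (reversed) and 8.66 in D7 at 4 h and 24 h between genes of any type. At equal list length it was 7.59, -2.27 and -1.76 (A2 4 h, A2 24 h, D7 4 h). With peaks at gene ends left out it was 4.08 and -2.07 in A2 and 0.444 in D7 (24 h). With the −log10 q limit of 10 it was -1.92 (A2 24 h) and -0.00450 (D7 4 h), and for D7 4 h -1.18 by summits within 200 bp and -1.66 with thinned pileups. Weighted by CTCF overlap and fold, it was 0.226 (A2 24 h), 1.86 (D7 4 h, reversed) and 7.14 (D7 24 h) with that limit, 0.0648 (A2 24 h) in gaps of 1 Mb or more, and -6.60 (A2 24 h, reversed) between genes of any type. The cause was not tested in any of these. No paired analysis was possible because each group holds 1 library, so the groups compared share at most 1 replicate number. A fit that takes the 2 clones as replicates of each time was not run.

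A change in total occupancy that left peaks in place is not seen in peak lists. Depth limits which weak peaks pass the calling threshold. HA, with 210 peaks, and WAPL limit what can be read from single deserts.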
